A study of Mus musculus with 8 samples.

Results

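The 10 genes described here encode the machinery that cuts, diversifies and rejoins antigen receptor genes: the recombinase (Rag1 and Rag2), the terminal transferase (Dntt), and the non-homologous end joining factors Xrcc5, Xrcc6, Prkdc, Dclre1c, Xrcc4, Lig4 and Nhej1. They were chosen by name, with earlier results of these data known. All 10 were found among the 37991 gene IDs of the count table and among the 13722 genes that passed the filter on low counts. The cells were lymphoid progenitors biased to the B lineage, sorted by flow cytometry after Kit enrichment of bone marrow from mice 5 to 12 weeks old, and their RNA was sequenced in bulk. There were 4 pools of H2afy-/- mice (group H2afy_KO) and 4 pools of H2afy+/+ mice (group H2afy_WT), each with RNA of 5000 to 15000 cells from 2 to 3 mice. The product of H2afy is macroH2A1, a variant histone of the H2A family, and the study asks about its place in B cell development. The sources used here do not give the mouse strain or the exons that the H2afy-/- allele lacks.

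V(D)J recombination assembles immunoglobulin and T cell receptor genes from separate gene segments in developing lymphocytes. RAG1 and RAG2 together cut the DNA beside 2 segments and leave hairpin-sealed coding ends and blunt signal ends. The Ku heterodimer, made of the products of Xrcc6 (Ku70) and Xrcc5 (Ku80), binds broken ends and recruits the kinase DNA-PKcs, encoded by Prkdc, which activates the nuclease Artemis, encoded by Dclre1c, to open the hairpins. Terminal transferase adds nucleotides without a template at the opened ends, and the ligase complex of Lig4, Xrcc4 and Nhej1 (XLF) seals them. Rag1, Rag2 and Dntt are largely restricted to developing lymphocytes, whereas the end joining factors serve every cell type.

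Rag1, Rag2 and Dntt had the smallest p-values of the 10 genes, so their promoters are shown first, with that of Xrcc6, the most abundant end joining factor, for contrast. Promoters were taken from RefSeq on GRCm38.p6 as the 250 bases before a start and the 50 after it, and 9 of the 10 genes matched. Capitals mark matches, on either strand, to CANNTG (E-box), TGGGAA (Ikaros), TGTGGT (Runx), TGTTTAC (Fox) and CCAAT. The windows are chr2:101649483-101649782 on the minus strand for Rag1, chr2:101624462-101624761 on the plus strand for Rag2, chr19:41029025-41029324 on the plus strand for Dntt, and chr15:82016119-82016418 on the plus strand for Xrcc6.
Rag1: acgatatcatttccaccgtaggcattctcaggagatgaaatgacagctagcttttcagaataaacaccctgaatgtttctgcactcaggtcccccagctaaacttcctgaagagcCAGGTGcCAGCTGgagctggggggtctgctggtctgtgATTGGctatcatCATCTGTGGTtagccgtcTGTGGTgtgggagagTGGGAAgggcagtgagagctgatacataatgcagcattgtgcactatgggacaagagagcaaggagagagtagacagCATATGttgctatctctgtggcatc
Rag2: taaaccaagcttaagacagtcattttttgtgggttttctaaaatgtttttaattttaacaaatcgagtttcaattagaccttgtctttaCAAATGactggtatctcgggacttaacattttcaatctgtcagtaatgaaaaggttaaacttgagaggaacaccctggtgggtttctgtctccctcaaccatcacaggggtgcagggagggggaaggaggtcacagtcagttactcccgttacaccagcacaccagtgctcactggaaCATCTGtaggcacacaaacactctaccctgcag
Dntt: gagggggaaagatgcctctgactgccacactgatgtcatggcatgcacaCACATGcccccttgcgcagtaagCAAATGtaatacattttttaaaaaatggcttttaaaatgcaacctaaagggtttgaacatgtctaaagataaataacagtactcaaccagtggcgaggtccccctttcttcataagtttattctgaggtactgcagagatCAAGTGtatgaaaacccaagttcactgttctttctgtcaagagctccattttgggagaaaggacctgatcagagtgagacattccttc
Xrcc6: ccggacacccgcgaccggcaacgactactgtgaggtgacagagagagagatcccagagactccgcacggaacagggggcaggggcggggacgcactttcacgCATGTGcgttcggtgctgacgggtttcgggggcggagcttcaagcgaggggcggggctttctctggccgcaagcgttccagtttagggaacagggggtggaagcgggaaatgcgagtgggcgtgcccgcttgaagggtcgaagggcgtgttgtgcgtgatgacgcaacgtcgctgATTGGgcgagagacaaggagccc
The Rag1 window held 4 E-boxes, 2 Runx matches, of which 1 overlaps an E-box, 1 Ikaros match and 1 CCAAT match on the reverse strand. The Rag2 window held 2 E-boxes and the Dntt window 3, with 0 matches to the other motifs, and the Xrcc6 window held 1 E-box and 1 CCAAT match. Over 32851 promoters of the same length, 72.3% held an E-box, 25.6% the Ikaros letters, 16.8% the Runx letters, 3.65% the Fox letters and 37.4% CCAAT, so the E-box matches are common and say nothing of binding. Rag2 and Dntt had G and C at 43.0% and 42.3% of bases, at percentiles 16.5 and 14.9 of the table, Rag1 had 50.0%, and Xrcc6 had 64.3%, where the median promoter had 52.7%. The promoters of Xrcc4 (65.7%) and Lig4 (66.3% and 67.3% at its 2 starts) were richer still in G and C.

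Pools held 21330088 to 29029765 gene counts. Values are CPM, counts divided by library sizes scaled with TMM factors, which correct for differences in RNA composition, and fold changes are H2afy_KO over H2afy_WT. The targeted gene H2afy had 1953, 1744, 1423 and 1517 CPM in H2afy_KO 1 to 4, against 2455, 2567, 2063 and 1981 CPM in H2afy_WT 1 to 4. The groups did not overlap, with a log2 fold change of -0.45 (SE 0.15). The edgeR adjusted p was 0.504, and 0.0930 with replicate number as a block. By DESeq2 it was 0.211, and 0.000805 by DESeq2 with the block. The H2afy_KO mean was 73.2% of the H2afy_WT mean. Counts are per gene and the exons that the allele lacks are not given, so this does not test the genotype labels. Why H2afy RNA remained was not tested. Of the markers of the sorted progenitor, Flt3 averaged 1022 and 980.4 CPM, Ly6d 947 and 739 CPM, Il7r 341 and 426 CPM, and Kit 257 and 308 CPM, in H2afy_KO and H2afy_WT pools. Ly6a had 92.1, 95.6, 618 and 397 CPM in H2afy_KO 1 to 4, against 99.9, 69.5, 156 and 150.2 CPM in H2afy_WT 1 to 4, so its higher H2afy_KO mean came from H2afy_KO 3 and H2afy_KO 4. Of the 5 markers 0 passed the edgeR test with or without the block. Il7r, with 321 to 363 CPM in H2afy_KO and 384 to 449.9 CPM in H2afy_WT, did not overlap and was called lower by DESeq2 with the block (adjusted p = 0.0459). The CD3 chains of the T cell receptor complex, Cd3d, Cd3e and Cd3g, were each under 1 CPM on average in both groups. Immunoglobulin genes took 0.402% to 39.0% of counts in H2afy_KO pools and 0.948% to 19.5% in H2afy_WT pools, so pools of 1 genotype differed widely in immunoglobulin RNA.

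Rag1 had the largest fold change of the 10 genes. It encodes the subunit that binds and cuts the recombination signals (ENSMUSG00000061311, minus strand of chromosome 2, 101478439 to 101489658 in NCBIM37, the assembly of mm9, as for the positions that follow). It had 63.8, 93.5, 24.1 and 71.3 CPM in H2afy_KO 1 to 4, against 213, 320.1, 116 and 143 CPM in H2afy_WT 1 to 4. The groups did not overlap, and H2afy_KO 3 stood lowest of all pools and H2afy_WT 2 highest. The H2afy_KO mean of 63.2 ± 28.9 CPM was 31.9% of the H2afy_WT mean of 198 ± 91.2 CPM (SD, 4 pools each). On the log2 scale the difference was -1.65 (SE 0.47, 95% interval -2.75 to -0.55), with an adjusted p of 0.475 over all genes by the edgeR quasi-likelihood test, which is not past the threshold of 0.05.

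The labels number the pools 1 to 4 in each genotype without saying what a number marks. Same-numbered pools deviated together, but weakly, and H2afy_KO 1 and H2afy_KO 3 each correlated better with an H2afy_WT pool of another number. With the number as a block Rag1 fell past the threshold, with a log2 fold change of -1.69 (SE 0.19) and an edgeR adjusted p of 0.0467. Of the 10 genes, 1 was called lower with the block, Rag1, and 0 higher, where 0.0802% of all tested genes were called lower and 0.0292% higher. The differences within pairs 1 to 4 were -1.74, -1.77, -2.26 and -1.003 on the log2 scale. The call was lost without pair 1, 2 or 3: the edgeR adjusted p with the block was 0.0640 without pair 1, 0.236 without pair 2, 0.105 without pair 3 and 0.00879 without pair 4. DESeq2 without the block called 0.875% of its genes (0.54% of all its genes lower) and 1 of the 10 members, Rag1 (adjusted p = 0.00359), a call it lost without H2afy_WT 4 (adjusted p = 0.112).

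Rag2 encodes the regulatory partner of RAG1, which reads a histone mark of active chromatin (ENSMUSG00000032864, plus strand of chromosome 2, 101464875 to 101472685). It had 224, 221, 97.0 and 185 CPM in H2afy_KO 1 to 4, against 311, 256, 227 and 275 CPM in H2afy_WT 1 to 4. The groups did not overlap, but the highest H2afy_KO pool lay just under the lowest H2afy_WT pool, and H2afy_KO 3 was again the lowest pool. The log2 fold change was -0.56 (SE 0.24, 95% interval -1.08 to -0.03), with an edgeR adjusted p of 0.629, and 0.187 with the block. Without H2afy_KO 3 it was -0.34, and without both H2afy_KO 3 and H2afy_KO 4 it was -0.26. DESeq2 with the block called 3.3% of its genes (1.61% lower and 1.7% higher) and 3 of the 10 members, all lower: Rag1, Dntt and Rag2 (adjusted p = 0.0156 for Rag2).

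Dntt was the most abundant of the 10 genes (ENSMUSG00000025014, plus strand of chromosome 19, 41103765 to 41134013). It had 5067, 3760, 3298 and 3942 CPM in H2afy_KO 1 to 4, against 6207, 5198, 5010 and 6235 CPM in H2afy_WT 1 to 4. H2afy_KO 1 lay above H2afy_WT 3, and the other 3 H2afy_KO pools lay below every H2afy_WT pool. The H2afy_KO mean was 4017 ± 751 CPM and the H2afy_WT mean 5663 ± 649 CPM (SD, 4 pools each), and Dntt was lower in H2afy_KO in each of the 4 same-numbered pairs. The log2 fold change was -0.50 (SE 0.16, 95% interval -0.85 to -0.14), with an edgeR adjusted p of 0.489, and 0.0765 with the block. DESeq2 with the block called it (adjusted p = 5.5e-04), as did DESeq2 without H2afy_KO 1 (adjusted p = 0.0146).

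**Figure D1:**
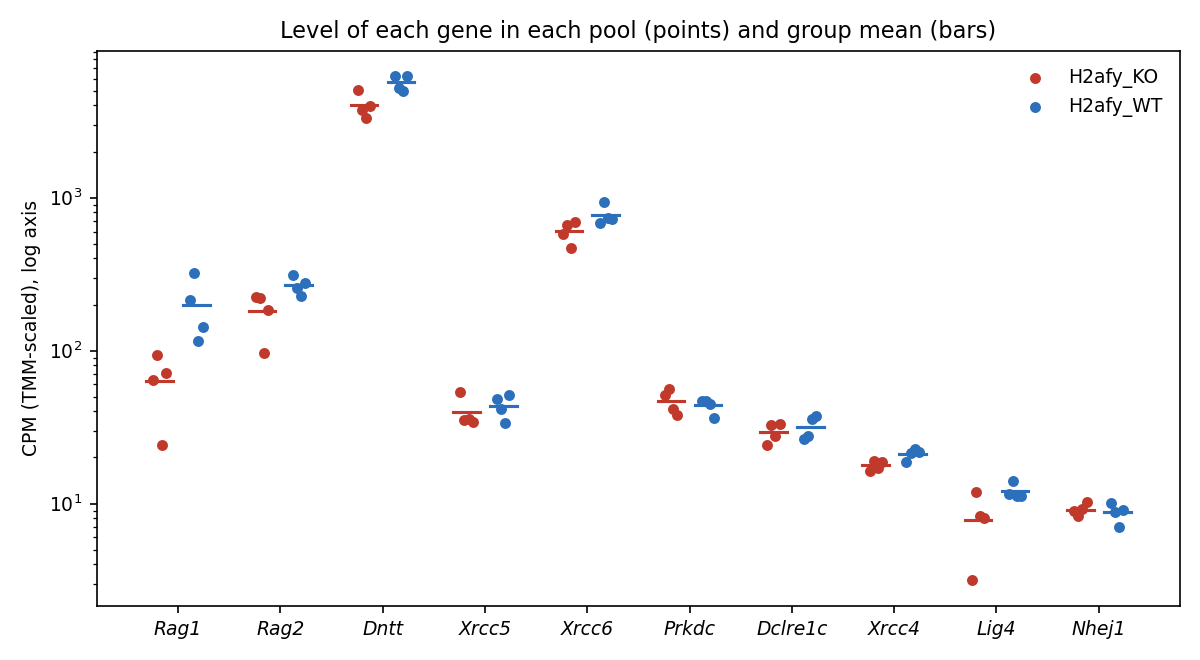
CPM of each of the 10 genes on a log axis, with 1 point per pool and a bar at the mean of the 4 pools of a group (H2afy_KO red, left; H2afy_WT blue, right). The groups part without overlap for Rag1 and Rag2, while the points of Xrcc5, Prkdc, Dclre1c and Nhej1 are intermingled.

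The genes that hold and process the broken ends had smaller differences, and 0 of them passed any of the 4 tests. Xrcc6, the Ku70 subunit (ENSMUSG00000022471, chromosome 15, 81818265 to 81870515), had 580, 664, 466 and 694 CPM in H2afy_KO 1 to 4, against 678, 929, 730.2 and 728 CPM in H2afy_WT 1 to 4. H2afy_KO 4 was above H2afy_WT 1, so the groups overlapped, and each H2afy_KO pool was below the H2afy_WT pool of its number. The log2 fold change was -0.35 (SE 0.16, 95% interval -0.71 to 0.01), with an edgeR adjusted p of 0.672. Xrcc5, the Ku80 subunit (ENSMUSG00000026187, chromosome 1, 72353995 to 72441526), had 34.3 to 53.7 CPM in H2afy_KO and 33.7 to 51.0 CPM in H2afy_WT, a log2 fold change of -0.13 (95% interval -0.55 to 0.28). The Ku subunits form a heterodimer, yet the transcript of Xrcc6 was far above that of Xrcc5 per length in every pool. Prkdc, the kinase subunit (ENSMUSG00000022672, chromosome 16, 15637959 to 15842332), had 38.0 to 56.2 CPM in H2afy_KO and 36.3 to 47.1 CPM in H2afy_WT, a log2 fold change of 0.09 (95% interval -0.26 to 0.44). Dclre1c, the hairpin-opening nuclease (ENSMUSG00000026648, chromosome 2, 3341403 to 3381402), had 24.0 to 32.9 CPM in H2afy_KO and 26.6 to 37.3 CPM in H2afy_WT, a log2 fold change of -0.12 (95% interval -0.49 to 0.26). For Xrcc5, Prkdc and Dclre1c the intervals do not reach a change of 1 on the log2 scale in either direction.

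Among the ligation genes, Lig4 had the largest difference and, per kilobase of exon, the lowest mean level in both groups. In CPM, Nhej1 was lower than Lig4 in H2afy_WT. Lig4, the ligase (ENSMUSG00000049717, chromosome 8, 9970020 to 9977686), had 3.14, 12.0, 8.31 and 8.02 CPM in H2afy_KO 1 to 4, against 11.6, 14.0, 11.3 and 11.2 CPM in H2afy_WT 1 to 4. H2afy_KO 1 stood apart with 99 counts and H2afy_KO 2 lay within the H2afy_WT range. The log2 fold change was -0.61 (SE 0.33, 95% interval -1.34 to 0.11), with an edgeR adjusted p of 0.706, and it was -0.35 without H2afy_KO 1. Xrcc4, the partner that stabilises the ligase (ENSMUSG00000021615, chromosome 13, 89913632 to 90229213), had 16.3 to 19.0 CPM in H2afy_KO and 18.6 to 22.6 CPM in H2afy_WT, a log2 fold change of -0.25 (95% interval -0.56 to 0.07). It varied least between pools, with a coefficient of variation of 7.52% in H2afy_KO and 8.22% in H2afy_WT, and it was lower in H2afy_KO in each of the 4 pairs. Nhej1, the bridging factor XLF (ENSMUSG00000026162, chromosome 1, 75013713 to 75093213), had 8.26 to 10.2 CPM in H2afy_KO and 7.03 to 10.1 CPM in H2afy_WT, a log2 fold change of 0.06 (95% interval -0.36 to 0.48).

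Of the 10 genes together, 0 passed the edgeR test, as did 0% of all tested genes. At an unadjusted p under 0.05, 3 were lower and 0 higher, where 7.58% of all genes passed, 3.69% lower and 3.88% higher. Without overlap of the groups were 2 of the 10, Rag1 and Rag2, both lower, where 4.53% of all genes did not overlap, 2.35% lower and 2.18% higher. Within the same-numbered pairs, 6 of the 10 were lower in H2afy_KO in each of the 4 pairs, where 10.9% of all genes were. A negative fold change was found for 8 of the 10 and for 49.9% of all genes, and the median log2 fold change was -0.30 over the 10 and within 0.001 of 0 over all genes. The fold changes ran from -1.65 for Rag1 to 0.09 for Prkdc, and the members with the largest values were the lymphoid-restricted genes and Lig4.

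**Figure D2:**
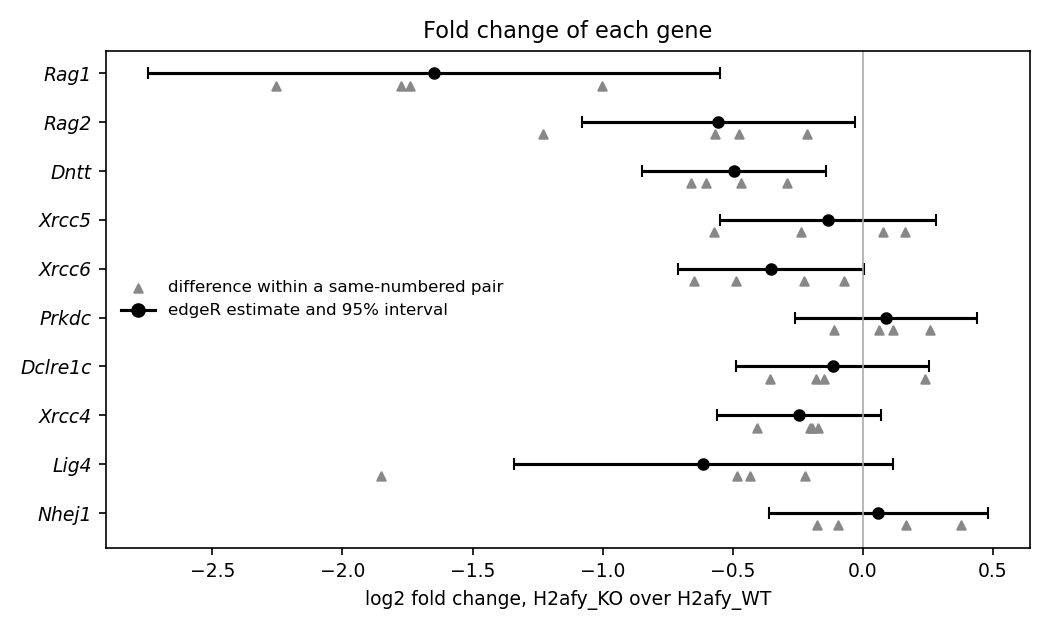
Log2 fold change of each gene (H2afy_KO over H2afy_WT) with its 95% interval from edgeR (black) and the difference within each of the 4 same-numbered pairs of pools (grey triangles). The intervals of Rag1, Rag2 and Dntt lie below 0, those of the 7 end joining genes include 0, and all 4 triangles lie below 0 for Rag1, Rag2, Dntt, Xrcc6, Xrcc4 and Lig4.

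Levels of different genes were compared as CPM per kilobase of exon. In both groups Dntt stood first, with 1888 ± 353 in H2afy_KO and 2661 ± 305 in H2afy_WT (CPM per kilobase, SD, n = 4 each), followed by Xrcc6 with 134 ± 22.8 and 171 ± 24.8, and by Rag2 with 53.1 ± 17.3 and 78.1 ± 10.3. The ranges of these neighbours did not overlap in either group. Rag1 had 9.56 ± 4.38 in H2afy_KO and 30.0 ± 13.8 in H2afy_WT. It was the fifth in H2afy_KO, below Xrcc5 (15.5 ± 3.67), and the fourth in H2afy_WT, above Xrcc5 (17.0 ± 3.01), with ranges that overlapped those of Xrcc5 in both groups. In H2afy_WT the range of Rag1 was below that of Rag2 and apart from it. Below them came Nhej1 (8.67 ± 0.771 and 8.31 ± 1.20), Xrcc4 (4.22 ± 0.317 and 5.00 ± 0.411), Prkdc (3.68 ± 0.663 and 3.46 ± 0.403), Dclre1c (3.15 ± 0.458 and 3.41 ± 0.586) and Lig4 (1.85 ± 0.850 and 2.82 ± 0.310), each pair of values for H2afy_KO and H2afy_WT. The ranges of Prkdc, Dclre1c and Lig4 overlapped from each to the next in both groups, as did those of Rag1 and Nhej1 and of Xrcc4 and Prkdc in H2afy_KO, so the order is not resolved there by 4 pools.

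**Figure D3:**
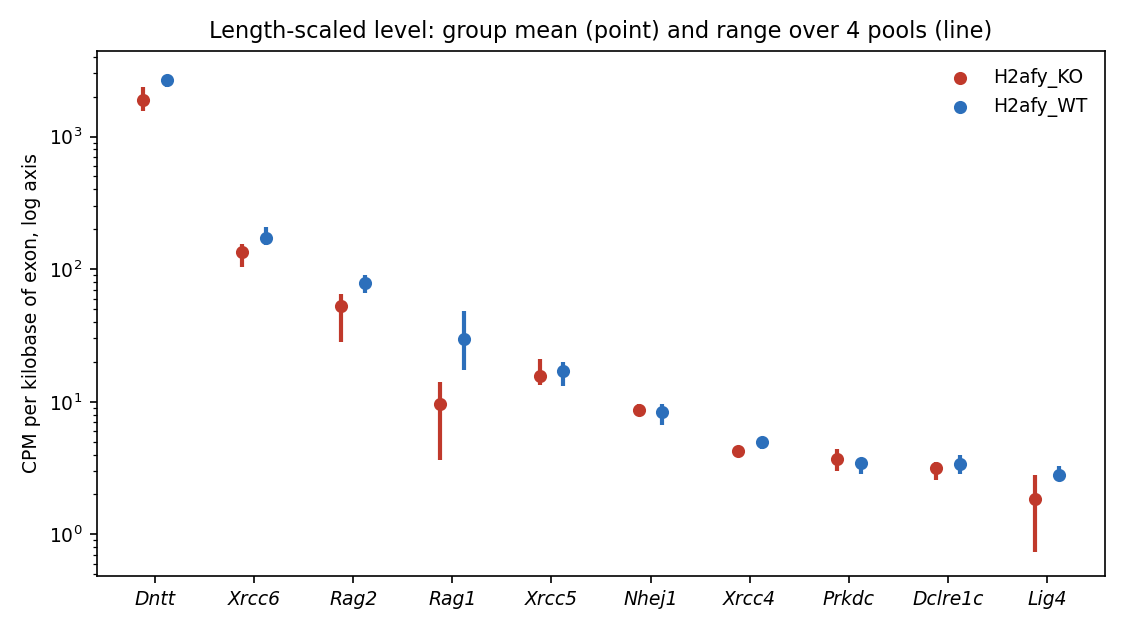
Length-scaled level (CPM per kilobase of exon, log axis) of the 10 genes in the order of their H2afy_WT means, with a point at the group mean and a line over the range of 4 pools (H2afy_KO red, left; H2afy_WT blue, right). Dntt, Xrcc6 and Rag2 lead in both groups, and Rag1 lies at 9.56 in H2afy_KO and 30.0 in H2afy_WT.

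Rag1 and Rag2 lie end to end on chromosome 2. The ratio of their counts within a pool does not depend on the scaling of libraries. There were 0.285, 0.424, 0.249 and 0.385 Rag1 counts per Rag2 count in H2afy_KO 1 to 4, against 0.685, 1.25, 0.508 and 0.521 in H2afy_WT 1 to 4. Every H2afy_KO pool was below every H2afy_WT pool, and H2afy_WT 2 was the only pool with more Rag1 than Rag2 counts. The mean log2 ratio was -1.61 ± 0.36 in H2afy_KO and -0.54 ± 0.60 in H2afy_WT (SD, n = 4 each), a difference of -1.07. Both genes are overlapped by exons of B230118H07Rik, which share 1.21% of the exon bases of Rag1, on its strand, and 6.08% of those of Rag2, on the other strand. The library kit does not mark strand, so reads in those stretches cannot be told apart.

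**Figure D4:**
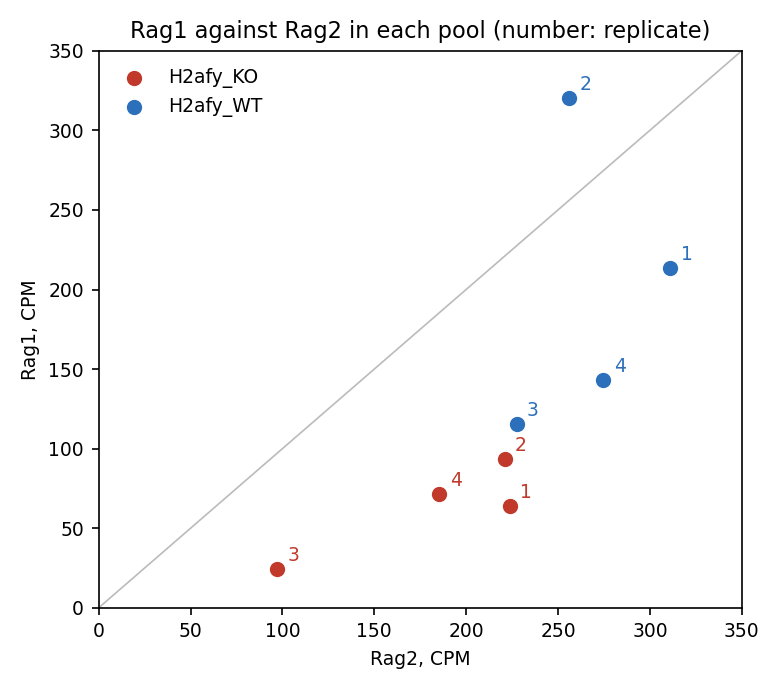
Rag1 against Rag2 in CPM in each pool, numbered by replicate (H2afy_KO red, H2afy_WT blue), with a grey line of equal values. The H2afy_KO pools lie lowest on both axes, and H2afy_WT 2 alone lies above the line, with 320.1 CPM of Rag1 and 256 CPM of Rag2.

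Across the 8 pools Rag2 varied with both Rag1 and Dntt. On log2 CPM, Rag2 and Dntt had a Pearson r of 0.855 (exact permutation p = 0.000769, adjusted over 6 relations 0.00461) and a Spearman rho of 0.929 (exact permutation p = 0.00223, adjusted 0.0134), with r = 0.824 without the 2 pools farthest from the median of Rag2. Rag1 and Rag2 had r = 0.879 (exact permutation p = 0.00387, adjusted 0.0116) and rho = 0.857 (exact permutation p = 0.0107, adjusted 0.0321), with r = 0.891 without the 2 pools farthest from the median of Rag1. The pools also differ by genotype, and the permutation exchanged pools of both genotypes, so these p-values take in the genotype difference too. For deviations from group means, without a test, r was 0.738 for Rag2 and Dntt, 0.788 for Rag1 and Rag2, and 0.329 for Rag1 and Dntt. Within genotypes, as values without a test, r between Rag2 and Dntt was 0.736 in H2afy_KO and 0.879 in H2afy_WT, and r between Rag1 and Rag2 was 0.949 in H2afy_KO and 0.377 in H2afy_WT. Rag1 and Dntt had r = 0.755 (exact permutation p = 0.0275, adjusted 0.0549) and rho = 0.738 (exact permutation p = 0.0458, adjusted 0.0917), not past the threshold after adjustment. Without H2afy_KO 3 and H2afy_WT 2 their r was 0.701, and within genotypes it was 0.496 in H2afy_KO and -0.00808 in H2afy_WT.

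The immunoglobulin share of a pool had no relation past the threshold to these genes over the 8 pools. Against the log2 share, r was -0.451 for Rag1, -0.506 for Rag2 and -0.488 for Dntt (exact permutation p = 0.267, 0.200 and 0.220, adjusted 0.267, 0.264 and 0.264), and rho was -0.429, -0.548 and -0.548 (exact permutation p = 0.299, 0.171 and 0.171, adjusted 0.299, 0.205 and 0.205). Leaving out H2afy_KO 1 and H2afy_WT 2, whose shares were the most extreme, gave r of -0.819, -0.796 and -0.685 for Rag1, Rag2 and Dntt. Within H2afy_KO r was -0.336, -0.611 and -0.913 for these genes, and within H2afy_WT it was -0.997, -0.327 and 0.073. With the share as a covariate the edgeR log2 fold change of Rag1 was -1.45 (adjusted p = 0.427).

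The neighbours of the recombinase genes were read next. Traf6, a signalling adaptor whose start lies within 200 kb, had 36.9 to 42.4 CPM in H2afy_KO and 39.7 to 44.7 CPM in H2afy_WT (log2 fold change -0.14, SE 0.12). B230118H07Rik, which spans both Rag genes, had 10.9 to 16.86 CPM in H2afy_KO and 16.87 to 23.9 CPM in H2afy_WT (log2 fold change -0.57, SE 0.19, edgeR adjusted p = 0.495), and shares exon bases with both. By Pearson r of log2 CPM over the 8 pools, the 5 tested genes most like Rag1 were Pnp (0.993), Smap2 (0.987), Vpreb2 (0.986), 2900026A02Rik (0.984) and Rdh12 (0.983). Pnp, a purine nucleoside phosphorylase, had 82.1 to 148 CPM in H2afy_KO and 179 to 259 CPM in H2afy_WT (log2 fold change -0.81, SE 0.20). Vpreb2, a surrogate light chain gene whose reads may be split with its close copy Vpreb1, had 8.19 to 27.97 CPM in H2afy_KO and 36.5 to 76.2 CPM in H2afy_WT (log2 fold change -1.45, SE 0.40). Of these 5 genes 0 passed the edgeR test with or without the block. DESeq2 called Pnp (adjusted p = 0.0301) and Vpreb2 (adjusted p = 0.0080) lower, where it called 0.54% of all its genes lower. With the block it called all 5 lower, where it called 1.61% of all its genes lower. They were picked as the highest r among all tested genes, over pools of both genotypes. Rag1 itself was lower in H2afy_KO, so lower values in these 5 largely follow from the choice.

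Other genes of break repair had smaller differences than Rag1. Of 10 tested accessory factors of end joining, 15 of the break response, 7 of alternative end joining and 12 of homologous recombination, 0 passed the edgeR test or the edgeR test with the block or DESeq2, with or without the block, and 1 had an unadjusted p under 0.05. Of all tested genes 7.58% had an unadjusted p under 0.05, 3.69% lower and 3.88% higher. The medians of the log2 fold change were 0.04, -0.07, 0.01 and -0.11 in these 4 lists. Their largest change was that of Polm, an accessory factor, at 1.38 (SE 1.09). It had 0.127 to 7.16 CPM in H2afy_KO and 0.340 to 2.25 CPM in H2afy_WT. In the order of the lists, genes with the smallest p were Tdp1 (log2 fold change -0.25, SE 0.15), which cleans broken ends, Parp1 (-0.33, SE 0.18), a sensor of breaks, and Atm (-0.18, SE 0.15), the kinase that signals them, Xrcc1 (0.31, SE 0.26) and the ligase Lig1 (-0.18, SE 0.15), and Rad51b (-0.48, SE 0.18) and Xrcc2 (-0.26, SE 0.15), paralogs of the strand exchange protein. The 5 cofactors of the recombinase had a median of -0.35. Hmgb1, a DNA-bending protein that aids RAG cutting, averaged 622 ± 112 CPM over H2afy_KO pools and 806 ± 102 CPM over H2afy_WT pools (SD, n = 4 each), a log2 difference of -0.37 (SE 0.16), and its relative Hmgb2 was at -0.35 (SE 0.17). Of these 5, 0 passed the edgeR test and 1, lower, had an unadjusted p under 0.05. DESeq2 with the block called 1, lower, where it called 1.61% of all its genes lower.

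The transcription factors known to act on Rag1, Rag2 or Dntt went in both directions. Of 20 tested, 0 passed the edgeR test and 7 lower and 1 higher had an unadjusted p under 0.05, with a median log2 fold change of -0.06. Over all genes 3.69% were lower and 3.88% higher at that p. With the block edgeR called 1 higher and 0 lower, where 0.0292% and 0.0802% of all genes were. DESeq2 called 1 higher and 2 lower (0.335% and 0.54% of all genes). DESeq2 with the block called 1 higher and 7 lower (1.7% and 1.61% of all genes). The fold change was below 0 for 12 of the 20 and above 0 for 8, among them Ikzf3 at 1.44 (SE 1.52) and Irf4 at 1.18 (SE 0.90). Irf8, the factor called with the block (edgeR adjusted p = 0.0420, and 0.0722 without it), had 272 to 355 CPM in H2afy_KO and 122 to 180 CPM in H2afy_WT (log2 fold change 1.02, SE 0.15). The groups also did not overlap in 4 lower factors, named here after their values were seen, where 2.35% of all genes were lower without overlap. Foxo1, a direct activator of the Rag genes, had 26.8, 34.97, 28.6 and 40.5 CPM in H2afy_KO 1 to 4, against 64.0, 87.2, 46.8 and 46.8 CPM in H2afy_WT 1 to 4. Ebf1, which specifies the B lineage, had 131, 214, 65.0 and 218 CPM in H2afy_KO 1 to 4, against 486, 639.9, 294 and 252 CPM in H2afy_WT 1 to 4. Lef1 had 4.55 to 26.7 CPM in H2afy_KO and 32.2 to 59.6 CPM in H2afy_WT, and Pax5 had 1.46 to 8.13 CPM in H2afy_KO and 9.84 to 15.3 CPM in H2afy_WT. H2afy_KO 3 was the lowest pool for Rag1, Rag2, Ebf1, Lef1 and Pax5.

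Markers of early B cells were also lower in H2afy_KO pools by the DESeq2 test with the block, in 5 of 7. The 7 pro-B and pre-B markers summed to 713 to 1663 CPM in H2afy_KO pools and 1688 to 3735 CPM in H2afy_WT pools, and the log2 fold changes of all 7 were below 0 (median -1.74). Of the 7, 0 passed the edgeR test with or without the block. At an unadjusted p under 0.05, 6 were lower, where 3.69% of all genes were. DESeq2 called 1 lower and DESeq2 with the block called 5 lower, where they called 0.54% and 1.61% of all genes lower. Blnk, an adaptor of the pre-B receptor, had 217, 310.1, 305 and 372 CPM in H2afy_KO 1 to 4, against 631, 600.2, 417 and 416 CPM in H2afy_WT 1 to 4 (log2 fold change -0.78, SE 0.20). Every H2afy_KO pool was below every H2afy_WT pool for Blnk. This held for 5 of the 7 markers, Blnk among them, where 2.35% of all genes were lower without overlap, and the groups overlapped for the rest. In bulk samples fewer cells that express Rag1 and less Rag1 RNA per cell cannot be told apart, and the part of these markers in the Rag1 result was not tested.

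Markers of other cells showed the following sums. The 6 plasma cell markers summed to 176 to 20567 CPM in H2afy_KO and 593 to 9113 CPM in H2afy_WT (median log2 fold change 1.25). Igj gave most of the sum except in the lowest pool of each group. These were H2afy_KO 1, with 32.4 CPM of Igj, and H2afy_WT 2, with 282 CPM. Sdc1 was at 1.24 (SE 0.43) and Xbp1 at 1.60 (SE 0.80). The 5 mature B markers summed to 811 to 1452 CPM in H2afy_KO and 848 to 1259 CPM in H2afy_WT, with Ms4a1 at 1.34 (SE 1.23) and Cd22 at 0.41 (SE 0.43), and Fcer2a under 1 CPM on average in both groups. The 6 plasmacytoid dendritic markers, from cells that can also express Dntt and the Rag genes, summed to 817 to 2083 CPM in H2afy_KO and 674 to 1261 CPM in H2afy_WT, with Cox6a2 at 0.61 (SE 0.13) and Bst2 at 0.74 (SE 0.19), both called by DESeq2 and not by edgeR. DESeq2 called 0.335% of all its genes higher. The log2 fold changes of the 6 ran from 0.05 to 1.62, with a median of 0.50. The 7 T lineage markers summed to 243 to 416 CPM in H2afy_KO and 354 to 387 CPM in H2afy_WT, mostly from Lck at -0.19 (SE 0.18), with Cd8a at 1.78 (SE 0.92), Cd4 at 0.75 (SE 0.46) and Bcl11b at -1.47 (SE 1.03). The 7 myeloid markers summed to 765 to 2619 CPM in H2afy_KO and 1114 to 5410 CPM in H2afy_WT, with Csf1r at 0.65 (SE 0.30) and Lyz2 at -1.25 (SE 0.55), and Ly6g under 1 CPM on average in both groups. The 5 erythroid markers summed to 8.001 to 84.4 CPM in H2afy_KO and 25.5 to 265 CPM in H2afy_WT, with Car1 at -1.19 (SE 0.91), and Klf1 and Epor under 1 CPM on average in both groups. No marker of these other lists passed the edgeR test. At an unadjusted p under 0.05, 1 plasma cell and 2 plasmacytoid dendritic markers were higher, where 3.88% of all genes were. Of these markers 0 were at 0 in every pool, and their part in the results above was not tested.

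**Figure D5:**
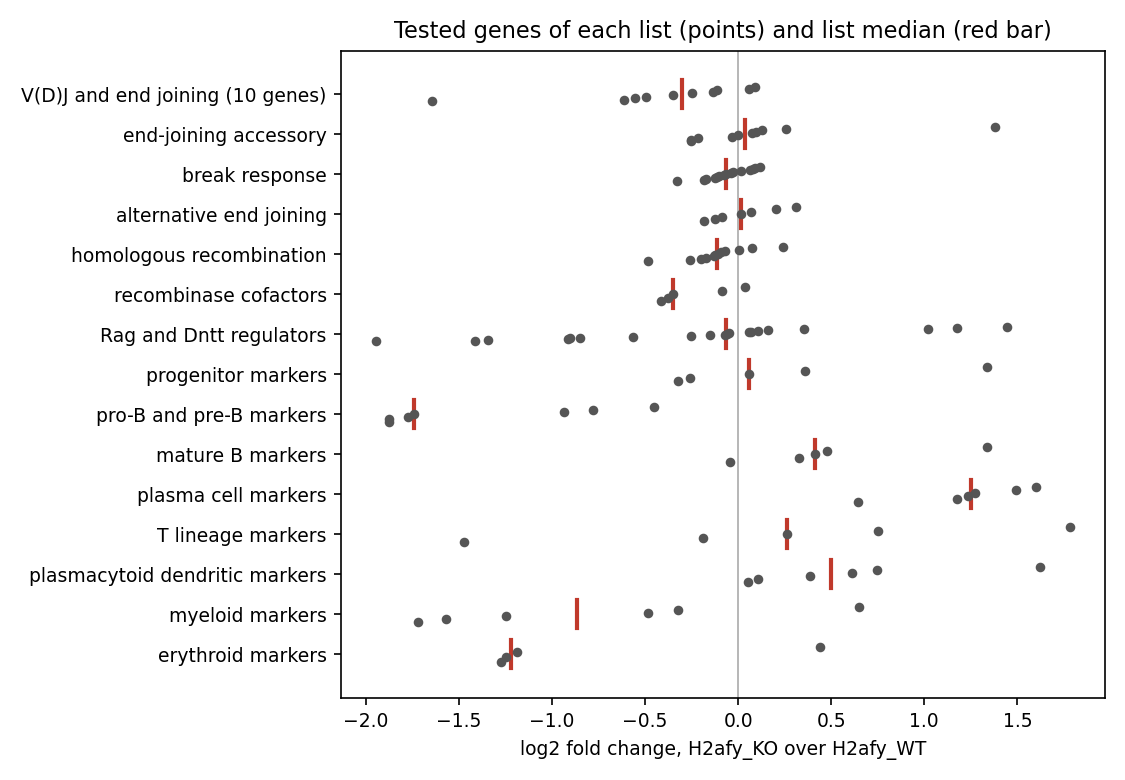
Log2 fold change (H2afy_KO over H2afy_WT) of the tested genes of each list, with 1 point per gene and a red bar at the list's median. The 4 repair lists centre near 0, the 10 V(D)J and end joining genes have a median of -0.30, and the pro-B and pre-B markers have a median of -1.74.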

How the data were processed

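The values deposited by the authors are raw counts per Ensembl gene for 8 pools, from single reads. The submitters' processing notes name HISAT2 2.0.6 and mm9. The counting program, the annotation and the use of strand were not given in the sources used here. GENCODE M1 (NCBIM37) named 37205 of 37991 IDs and gave coordinates and exon lengths. Of 127 list symbols, 126 were found, 4 of them by an older name.

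The main test was edgeR 4.0.16 (quasi-likelihood, TMM, filterByExpr with a minimum count of 10, robust) with Benjamini-Hochberg adjustment over 13722 genes. Log2 CPM used a prior count of 2. Alternatives used DESeq2 1.42.0, limma 3.58.1 (voom with sample weights) and R 4.3.3. The tests were also tested on simulated data, with results that are not given here. Whether any mice contributed to more than 1 pool is not stated, so p-values rest only on the spread among the pools. No pool repeated another (smallest chi-square per degree of freedom 99.5).

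Both genotypes carry replicate numbers 1 to 4. Deviations from group means correlated at r = 0.190, 0.188, 0.355 and 0.407 in same-numbered pools, all over 0.1, so the numbers were read as pairing the pools. This is a hint from the data: H2afy_KO 1 correlated more with H2afy_WT 2 (0.524) and H2afy_KO 3 more with H2afy_WT 4 (0.454).

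The members and lists were chosen with earlier results of these data known. Named genes were all members; in each other list, those past the threshold with or without the block, otherwise the 2 with the smallest p; genes starting within 200 kb of Rag1 or Rag2; the 5 most like Rag1; the progenitor markers; and H2afy. Polm, Foxo1, Ebf1, Lef1, Pax5, Ikzf3, Irf4, Igj, Lck, Bcl11b and marker genes at low levels were named after their values were seen. Some genes that this rule names are not reported here.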

Additional observations from a re-analysis of the deposited data

Results flagged for a closer look

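In 20 groups of 4 pools, 1 for each gene and genotype, 2 had a pool whose gap to the nearest other pool took up more of the group's log2 CPM range than Dixon's 95% critical value for 4 samples allows. Chance gives about 1 in 20. Xrcc5 in H2afy_KO 1, with 53.7 CPM where the other H2afy_KO pools had 34.3 to 35.5 CPM, had a gap of 0.918 of the range. Lig4 in H2afy_WT 2, with 14.0 CPM where the other H2afy_WT pools had 11.2 to 11.6 CPM, had a gap of 0.874 of the range.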

How the results depend on the processing

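Calls depended on the test. Without the block, edgeR called 0 genes higher and 0 lower over all genes, and 1 and 4 with upper-quartile factors, 7 and 9 with no filter on low counts, 0 and 2 with at least 5 CPM in 4 samples, 0 and 3 without immunoglobulin genes, 1 and 2 with the immunoglobulin share as a covariate, and 0 to 1 with 1 pool left out (1 lower without H2afy_KO 4). limma-voom with sample weights and edgeR with RLE factors each called 0 genes higher and 0 lower over all genes, and 0 members. The other edgeR settings named in this paragraph also called 0 members. DESeq2 called 49 higher and 79 lower. The cause of these differences was not tested.

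With the replicate block, which pairs same-numbered pools, edgeR called 4 genes higher and 11 lower, and DESeq2 249 and 236. Of the 10 members it called 1 lower by edgeR, also 1 without pair 4 and 0 without pair 1, 2 or 3, and 3 lower by DESeq2. DESeq2 without the block called 1 member, 2 without H2afy_KO 1, 0 without H2afy_WT 4 and 1 without each other pool. Rag1 was past the threshold at -1.65 by DESeq2, -1.69 with the block by either tool and -1.92 with the block without pair 4. By DESeq2 without H2afy_KO 1 to 4 in turn it was at -1.65, -1.90, -1.38 and -1.71, and without H2afy_WT 1 to 3 at -1.61, -1.31 and -1.83. Rag2 was past it at -0.62 and Dntt at -0.51 by DESeq2 with the block, and Dntt at -0.63 by DESeq2 without H2afy_KO 1. The block changed no other member's edgeR call.

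In the lists, DESeq2 called 1 regulator higher and 2 lower, 1 pro-B marker lower and 2 plasmacytoid dendritic markers higher. DESeq2 with the block called 1 cofactor lower, 1 regulator higher and 7 lower, 1 progenitor marker lower, 5 pro-B markers lower and 2 plasmacytoid dendritic markers higher. edgeR called 1 regulator higher with the block, and 1 with no filter on low counts.

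The log2 fold changes of Rag1, Rag2, Dntt, Xrcc6, Dclre1c, Xrcc4 and Lig4 kept their sign under all alternatives run. Xrcc5 turned to 0.041 and Nhej1 to -0.019 without both H2afy_KO 3 and H2afy_KO 4. With 1 pool left out, Prkdc ranged from -0.014 (without H2afy_KO 2) to 0.179, and Nhej1 from -0.030 (without H2afy_WT 3) to 0.126. Per kilobase of the longest transcript in place of all exons, Xrcc6 was at 182 in H2afy_KO and 233 in H2afy_WT, Dclre1c at 4.14 and 4.49, and Xrcc4 at 5.19 and 6.16, since that length is shorter. The fewest counts of a member in any pool were the 99 of Lig4 in H2afy_KO 1, and intervals and SDs from 4 pools are wide.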
